A study of Homo sapiens with 12 samples.

Results

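The comparison described here sets 3 arrays of Ishikawa cells labelled GPR54 siRNA against 3 arrays of cells given a negative control siRNA, both with a control peptide, and covers 6 of the 12 arrays of the series. Its members were chosen by the array titles and labels alone, and all 54613 probe sets that are not controls of the array maker were used, with or without a gene name. Ishikawa is an established human line of endometrial adenocarcinoma cells. Per the labels, all cells were transfected for 48 h with either siRNA and then given a peptide for 24 h, so the control cells were transfected too although their titles call them non-treated. The other 6 arrays repeat the siRNA comparison with 10 µM metastin-10 in place of the control peptide and also enter the shared estimate of the spread. The series asked whether expression changes with metastin-10 run through its receptor, and the control peptide arrays show what the siRNA label alone goes with.

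GPR54 is the older name of the protein encoded by KISS1R, the receptor for the kisspeptins, which are peptides cut from the KISS1 product and also called metastins. The receptor couples to Gq, which activates phospholipase C, releases calcium and turns on protein kinase C. It is best known for driving gonadotrophin-releasing hormone neurons at puberty, and KISS1 was first described as a suppressor of metastasis. A small interfering RNA guides an Argonaute complex to a matching mRNA, which is cut and degraded, so a working siRNA lowers the mRNA of its target.

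Each gene on these arrays is read by 1 or more probe sets, which are groups of short probes, and values are on the log2 scale, where 1 unit is a doubling. The 6 arrays were alike: their pairwise correlations ran from 0.994 to 0.997 over all probe sets, and the array medians from 5.13 to 5.17. The 13 endometrial epithelium markers averaged between 10.5 and 10.6 on every one of the 6 arrays. The mean log2 level was 4.89 to 4.93 for the 10 stromal fibroblast markers, 4.54 to 4.62 for the 9 endothelial markers, 4.17 to 4.38 for the 8 measured leukocyte markers and 6.26 to 6.42 for the 6 smooth muscle markers. The groups overlapped in all 5 marker averages. Without detection calls, no marker can be said to be at 0.

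The arrays labelled GPR54 siRNA did not show less of the targeted mRNA. KISS1R, read by 1 probe set, was at 9.39, 9.32 and 9.14 with control siRNA and at 9.46, 9.45 and 9.36 in the arrays labelled GPR54 siRNA. The groups overlap, and the means are 9.28 ± 0.13 and 9.42 ± 0.05 (SD, n = 3 each). The difference was 0.14 with a 95% interval of -0.07 to 0.35 (limma adjusted p = 0.9998), and the two-sided exact permutation p was 0.2, where 0.1 is the smallest that 3 arrays against 3 can give. A fall of more than 0.07 therefore lies outside the interval at this probe set. Where the siRNA binds relative to the probes is not given in the sources used here, and the arrays are called by their label throughout. KISS1, the gene of the ligand precursor, was at 4.26 ± 0.08 and 4.24 ± 0.12, a difference of -0.02.

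With control peptide, 29 probe sets were lower in the arrays labelled GPR54 siRNA and 0 were higher, which is 0.0531% of those tested (limma, adjusted p under 0.05). The log2 differences of the 29 ran from -1.39 to -0.54 with a median of -0.89, that is 1.45-fold to 2.62-fold lower. Only 4 of them read 1 named gene: DLEU2, a long non-coding RNA that hosts microRNAs; AKAP9, a scaffold that anchors protein kinase A at the centrosome and Golgi; GOLGA4, a tethering protein of the trans-Golgi; and LRPPRC, an RNA-binding protein that stabilises mitochondrial mRNAs. A further 24 have no gene in the platform annotation used and may still read one, and 1 is listed under several genes and is given by its ID. At an unadjusted p under 0.05 there were 1418 lower and 903 higher probe sets, 2.60% and 1.65% of all. All told, 45.1% of probe sets lay below 0. The next 36 probe sets, with adjusted p between 0.05 and 0.1, were also all lower, and the smallest adjusted p of a higher probe set was 0.107, for CALCB.

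**Figure D1:**
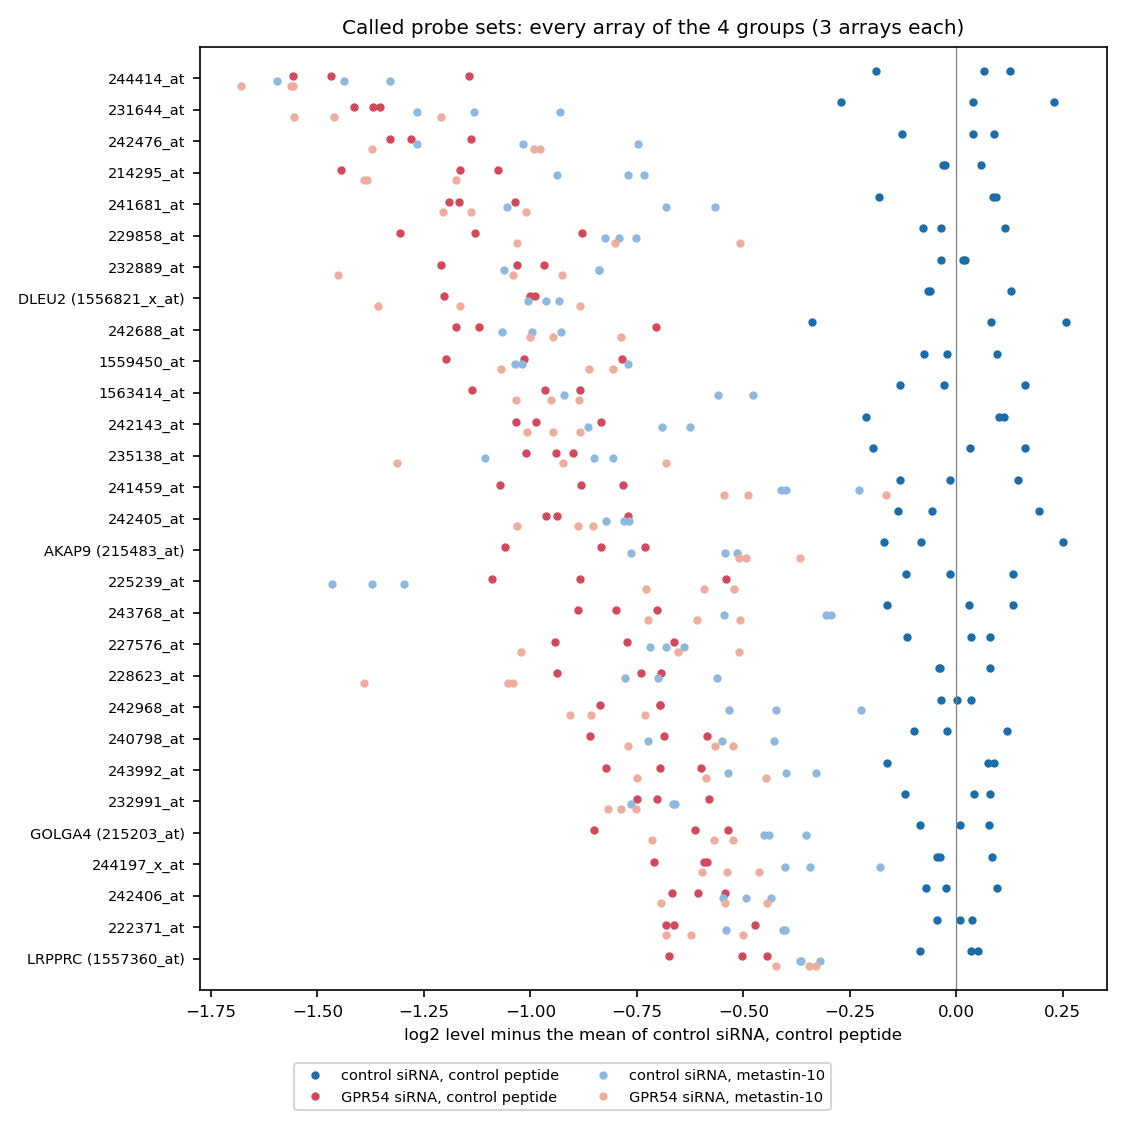
Level of the 29 called probe sets on each of the 12 arrays, as log2 level minus the mean of the control siRNA, control peptide group, with 1 point per array and colours for the 4 groups of 3 arrays. The control siRNA, control peptide arrays lie to the right of the other 9 arrays for all 29 probe sets, with the arrays labelled GPR54 siRNA between -1.56 and -0.44.

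The number of calls moved with the fit. With the replicate number as a block it was 51, all lower (0.0934%), of which 27 were among the 29, and with replicate 3 as a batch it was 87, 86 of them lower. With only the 6 arrays compared it was 9, of which 7 were among the 29. With replicates 1 and 2 only it was 0, where 3555 probe sets had an unadjusted p under 0.05. Without control siRNA, control peptide replicate 3 it was again 29, but only 18 of these were among the main 29. Without control siRNA, control peptide replicate 1 or 2 it was 10 or 5, without GPR54 siRNA, control peptide replicate 2 or 3 it was 10 or 3, without control siRNA, metastin-10 replicate 1 or 2 it was 18 or 19, and without GPR54 siRNA, metastin-10 replicate 2 or 3 it was 18 or 44. The probe sets 244414_at, 231644_at and 214295_at passed whichever of the 12 arrays was left out.

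The lowest probe set, 244414_at, was at 5.69, 6.001 and 5.94 with control siRNA and at 4.73, 4.32 and 4.41 in the arrays labelled GPR54 siRNA, a difference of -1.39 ± 0.12 (SE; limma adjusted p = 0.00137). For 231644_at the values were 4.78, 4.98 and 4.48 against 3.38, 3.39 and 3.33 (-1.38 ± 0.13, limma adjusted p = 0.00280). For 214295_at they were 5.15, 5.07 and 5.06 against 4.02, 3.65 and 3.93 (-1.23 ± 0.11, limma adjusted p = 0.00137). In these 3 probe sets, none with a listed gene, each control array was at least 0.955 above each array labelled GPR54 siRNA. 242476_at was at -1.25, 241681_at at -1.13, 229858_at at -1.10 and 232889_at at -1.07, while 242688_at was at -0.99996, 1559450_at at -0.9996 and 1563414_at at -0.9950. 242143_at and 235138_at were at -0.95, 241459_at at -0.91, 242405_at at -0.89, 243768_at at -0.80, and 227576_at and 228623_at at -0.79. The smallest differences among those without a gene were those of 242968_at (-0.74), 240798_at (-0.71), 243992_at (-0.71), 232991_at (-0.68), 244197_x_at (-0.63), 242406_at (-0.61) and 222371_at (-0.61). With the replicate block 227576_at and 240798_at did not pass (limma adjusted p = 0.0689 and 0.0661), and the other 27 kept their call.

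Among the named calls, the DLEU2 probe set 1556821_x_at was at 6.72, 6.92 and 6.72 with control siRNA, against 5.80, 5.79 and 5.58 in the arrays labelled GPR54 siRNA, a difference of -1.06 ± 0.12 (SE; limma adjusted p = 0.00534). The AKAP9 probe set 215483_at was at 4.91, 5.24 and 4.82 against 4.26, 4.15 and 3.93 (-0.87 ± 0.12, limma adjusted p = 0.0279). The GOLGA4 probe set 215203_at was at 5.90, 5.83 and 5.73 against 5.28, 4.97 and 5.21 (-0.67 ± 0.10, limma adjusted p = 0.0310). In all 3 the control arrays lie above the others with no overlap. The LRPPRC probe set 1557360_at was at 6.40, 6.54 and 6.52 against 6.04, 5.98 and 5.81 (-0.54 ± 0.08, limma adjusted p = 0.0470). The probe set listed under several genes, 225239_at, was at 5.81, 5.96 and 5.71 against 5.29, 4.94 and 4.74 (-0.84 ± 0.13, limma adjusted p = 0.0460). These also do not overlap. Leaving out 1 array at a time, the call was lost in 11 of 12 fits for LRPPRC, 9 for GOLGA4, 6 for AKAP9, 2 for DLEU2 and 10 for 225239_at. With only the 6 arrays compared the calls of LRPPRC, GOLGA4 and AKAP9 were also lost (limma adjusted p = 0.255, 0.166 and 0.156).

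Other probe sets of the same genes differed in size and sign. The brightest probe set of each gene, judged by its mean over the 12 arrays, was at 0.01 for DLEU2, -0.08 for AKAP9, 0.02 for GOLGA4 and -0.03 for LRPPRC, and none passed. DLEU2 has 7 single-gene probe sets, 5 of them below 0, with a range of -1.06 to 0.19. Its probe set 1556820_a_at was at 5.12, 5.03 and 4.77 against 4.48, 4.43 and 4.09 (-0.64) and passed only with the replicate block (limma adjusted p = 0.0201, against 0.166 without it). DLEU2 242854_x_at (-0.33) and 1569600_at (-0.29), and LRPPRC 230194_at (-0.24), also had separate groups with the arrays labelled GPR54 siRNA below, and did not pass. AKAP9 has 3 probe sets, GOLGA4 has 2 and LRPPRC has 5, and in each gene 1 was called.

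**Figure D2:**
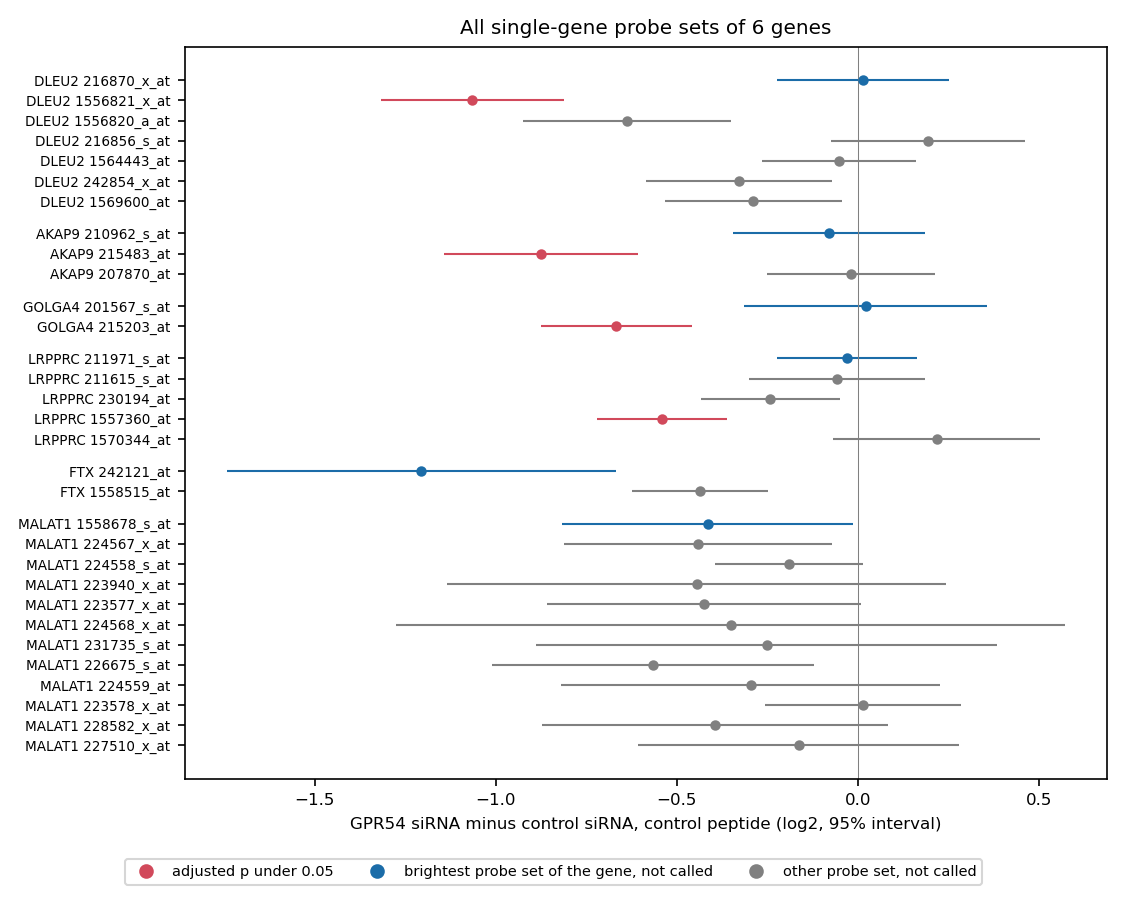
Log2 difference, GPR54 siRNA minus control siRNA with control peptide, with its 95% interval for each single-gene probe set of DLEU2, AKAP9, GOLGA4, LRPPRC, FTX and MALAT1, with called probe sets in red and the brightest uncalled one of a gene in blue. In DLEU2, AKAP9, GOLGA4 and LRPPRC 1 probe set is called while the brightest lies between -0.08 and 0.02, and in MALAT1 11 of 12 lie below 0 with none called.

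DLEU2 and FTX, the gene with the lowest value at 1 probe set per gene (below), are both long non-coding RNAs. Their genes span microRNA genes, and some of the mature microRNAs are shown. RefSeq (GRCh38.p14) places 3 microRNA genes with 6 mature microRNAs inside the span of DLEU2 and 5 with 8 mature microRNAs inside that of FTX. These were counted by position on either strand, and MIR374C lies on the strand opposite to the other microRNAs within FTX. Capitals mark the seed, bases 2 to 8, which pairs with target mRNAs. The first pair, from DLEU2, shares its seed, and the second pair is from FTX. The arrays read the host transcripts, and the mature microRNAs were not measured.
hsa-miR-15a-5p: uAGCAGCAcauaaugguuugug
hsa-miR-16-5p: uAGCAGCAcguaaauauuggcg
hsa-miR-545-3p: uCAGCAAAcauuuauugugugc
hsa-miR-421: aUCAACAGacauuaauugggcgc

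Probe sets without a listed gene leaned lower as a class. Of the 11721 probe sets with no gene, 682 were lower and 190 higher at an unadjusted p under 0.05 (5.82% and 1.62%), against 696 and 681 of the 41091 with 1 gene (1.69% and 1.66%). A log2 difference below -0.5 was seen in 170 of those with no gene and one above 0.5 in 1, against 83 and 7 of those with 1 gene. The medians of both classes were near 0, at -0.01 and 0.02, so the asymmetry lies in the lower tail. Among single-gene probe sets, the 19775 that are brightest or alone for their gene had 203 lower and 350 higher at that p (1.03% and 1.77%), and the 21316 others had 493 lower and 331 higher (2.31% and 1.55%). With metastin-10 the class without a gene had 576 lower and 311 higher (4.91% and 2.65%). The class with 1 gene had 1626 and 2783 there (3.96% and 6.77%), and 4.16% of all probe sets were lower. Below -0.5 and above 0.5 there were 14 and 27 without a gene, against 60 and 362 with 1 gene. Probe sets share arrays and are not independent, so these counts are descriptions.

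**Figure D3:**
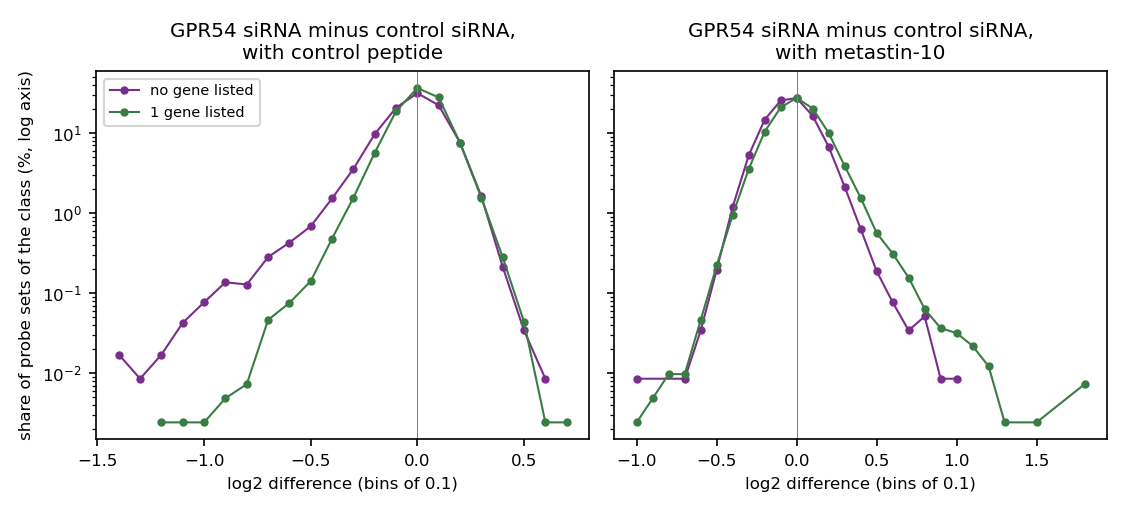
Share of probe sets (%, log axis) by log2 difference in bins of 0.1, GPR54 siRNA minus control siRNA, for the 11721 probe sets with no gene listed and the 41091 with 1 gene, with control peptide on the left and metastin-10 on the right. On the left the class without a gene has the heavier lower tail (170 below -0.5), and on the right the class with 1 gene has the heavier upper tail.

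With control peptide the Alu reading was lower in the arrays labelled GPR54 siRNA. It comes from the array maker's control probe set for human Alu, a repeat common in introns and in unspliced RNA. The values were 14.20, 14.16 and 14.04 with control siRNA, against 13.92, 14.01 and 13.90 in the arrays labelled GPR54 siRNA, without overlap. With metastin-10 they were 14.09, 14.10 and 13.95 under control siRNA and 13.98, 14.05 and 13.94 under GPR54 siRNA. The metastin-10 groups overlap each other, and some of their arrays read above the lowest control siRNA, control peptide array. The actin 3 prime minus 5 prime difference, a measure of RNA integrity and labelling, was 0.90, 0.77 and 0.29 against 0.71, 0.66 and 0.36, and overlaps. The part of either in the lower probe sets was not tested.

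The same 29 probe sets were read in the arrays with metastin-10, whose means do not enter the control peptide difference. Those arrays do enter the shared estimate of the spread behind the 29 calls. There 24 of 29 lay below 0, where 51.9% of all probe sets did, but the median was only -0.15 and the range -0.50 to 0.76. Most of the 29 have no listed gene, and that class itself had a median of -0.04 with metastin-10, against 0.0021 for 1 gene. At an unadjusted p under 0.05, 8 of 29 were lower (4.16% of all probe sets were) and 1 higher. The lowest were 214295_at (-0.50), 228623_at (-0.48), 242968_at (-0.44) and 241681_at (-0.35). None of the 29 was called lower there, and 225239_at was called higher (0.76, limma adjusted p = 0.0158, where 0.579% of probe sets were called). The difference between both siRNA effects was tested as an interaction. It passed for 2 of the 29, 244414_at and 225239_at (0.0513% of all probe sets passed). The 29 were chosen by their control peptide differences, which enter this test, so smaller differences with metastin-10 are partly built in. With the replicate block 244414_at no longer passed that test (limma adjusted p = 0.0510), nor did it without 1 of several single arrays. For the other 27 that test did not pass, which does not show equal effects.

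**Figure D4:**
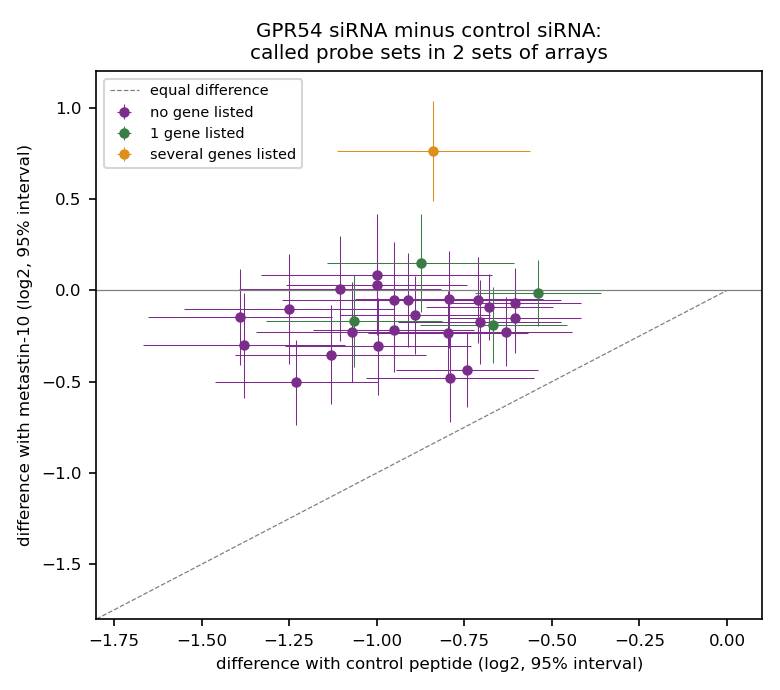
Log2 difference of the 29 called probe sets, GPR54 siRNA minus control siRNA, with control peptide (horizontal) and with metastin-10 (vertical), with 95% intervals. The means come from different arrays, with 1 estimate of the spread for both. All 29 points lie above the dashed line of equal difference, 24 of 29 are below 0 on the vertical axis, and 225239_at stands apart at 0.76. The 29 were chosen by the horizontal difference, which favours points above that line.

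In level, the control siRNA, control peptide arrays were the ones that stood apart. Over the 29, the median of the group means was 5.46 there, 4.51 in the arrays labelled GPR54 siRNA, and with metastin-10 it was 4.45 under control siRNA and 4.53 under GPR54 siRNA. By array, the median of the 29 was 5.56, 5.50 and 5.33 in the first group and between 4.34 and 4.71 on the other 9 arrays. For all 29 the 3 control arrays were above each of the other 9, which held for 0.932% of all probe sets. Being above 3 of the 9 was built into their choice. That choice used the values of these control arrays, which also favours their being above the metastin-10 arrays. The count is therefore a description and no separate support. Of the 4 probe sets with a gene, AKAP9 was at 4.22, 4.44 and 4.47 with control siRNA and metastin-10 and 4.49, 4.62 and 4.48 with GPR54 siRNA and metastin-10. Both sets lie below the 4.82 of the lowest control array. Metastin-10 minus control peptide, both under control siRNA, uses the same 3 control arrays, and its median for the 29 was -0.70 with 21 called, so it is no separate evidence.

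At 1 probe set per gene, 0 of 19775 genes passed (limma), with 203 lower and 350 higher at an unadjusted p under 0.05. The 12 lowest and 12 highest genes below have groups that do not overlap and an unadjusted limma p under 0.01, a rule met by 38 lower and 47 higher genes. With the replicate block SMG1P5 and PWAR6 passed (limma adjusted p = 0.0229 and 0.0259). Without GPR54 siRNA, metastin-10 replicate 1, SMG1P5 and FTX passed, and without its replicate 3 SMG1P5 did. With replicate 3 as a batch CALCB, PWAR6 and SMG1P5 passed. With array weights DEPDC1-AS1, CALCB, PWAR6, CCDC18-AS1, SMG1P5 and FTX passed. SMG1P5 also passed with trend and robust eBayes and with arrays centred on their median. All values of these genes are given as differences that did not pass in the main fit.

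FTX, a non-coding RNA of the X-inactivation centre, was at 5.95, 5.81 and 5.29 with control siRNA and at 4.41, 4.72 and 4.30 in the arrays labelled GPR54 siRNA (-1.21 ± 0.25 SE, limma adjusted p = 0.161). Its other probe set was at -0.44. SMG1P5, a transcribed pseudogene of the SMG1 kinase that acts in nonsense-mediated decay, was at 6.23, 6.18 and 6.35 against 5.61, 5.53 and 5.70 (-0.64 ± 0.10, limma adjusted p = 0.0541). PWAR6, a non-coding RNA of the Prader-Willi region, was at 7.55, 7.51 and 7.22 against 6.95, 6.93 and 6.70 (-0.57), with its other probe set at -0.61. In these 3 genes every control array was above every array labelled GPR54 siRNA. ITGB8, an integrin subunit that activates latent TGF-beta, was at 10.03, 9.78 and 9.72 against 9.02, 9.44 and 9.31 (-0.59). SYNE2, which encodes a nesprin that links the nuclear envelope to the cytoskeleton, was at 8.07, 8.30 and 8.16 against 7.85, 7.69 and 7.58 (-0.47). The rest were LOC100190986 (-0.83), BMS1P2 (-0.55), GTF2H2B (-0.54), AGAP4 (-0.48), LOC114224 (-0.46), LINC01355 (-0.46) and CCDC152 (-0.46). SMG1P5, BMS1P2, GTF2H2B and AGAP4 have near-identical copies elsewhere in the genome, so which copy the probes read is uncertain.

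Among the highest, CALCB, which encodes the beta form of the vasodilator calcitonin gene-related peptide, had the smallest p. It was at 8.04, 8.02 and 8.11 with control siRNA and at 8.57, 8.41 and 8.48 in the arrays labelled GPR54 siRNA (0.43 ± 0.08 SE, limma adjusted p = 0.107), and passed only with replicate 3 as a batch (limma adjusted p = 0.0467) and with array weights. DKK2, a secreted modulator of Wnt signalling, was at 3.58, 3.43 and 3.25 against 3.66, 4.02 and 4.22 (0.55). RORA, an orphan nuclear receptor, was at 4.29, 4.80 and 4.50 against 5.15, 4.88 and 5.09 (0.51). Of the 24 genes, RORA was the 1 called with metastin-10, where it was 1.24 higher (limma adjusted p = 0.00256). OTC, a urea cycle enzyme, was at 0.51, DEPDC1-AS1 at 0.49, MGARP, a mitochondrial protein, at 0.48, FMO5, a flavin monooxygenase, at 0.47 and ZPR1P1 at 0.47. GPC1-AS1 was at 0.43, and ZP1, which encodes an egg coat protein, ACTL9 and LOC441666 were at 0.42. With metastin-10, 10 of the 12 lowest and 10 of the 12 highest genes had the same sign. Of the 24, 12 have other probe sets, 26 in all, of which 18 had the same sign and 0 passed. Those of opposite sign belong to ITGB8 (up to 0.12), SYNE2 (up to 0.25), CCDC152 (0.23), RORA (down to -0.15), FMO5 (-0.0062) and LOC441666 (-0.11 and -0.07).

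Genes induced by low oxygen and genes of glycolysis lay slightly above 0 as a group. Hypoxia-inducible factor, stabilised when oxygen is short, binds a short motif near these genes and raises glucose uptake, glycolysis and vessel growth. Of the 36 measured members, 35 were above 0, where 59.4% of all genes were, and the median was 0.09 against 0.02 for all genes. In 13 of 36 (36.1%) the arrays labelled GPR54 siRNA were all above the control arrays, against 6.34% of all genes, and in 0 they were all below. No member passed (limma), where 0 of all 19775 genes did, and 8 had an unadjusted p under 0.05, all higher. This list had been seen to lean this way in these arrays before, so its counts are a description and no separate support.

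ANKRD37, an ankyrin repeat protein, was at 8.57, 8.56 and 8.67 with control siRNA and at 9.01, 8.84 and 9.02 in the arrays labelled GPR54 siRNA (0.36 ± 0.10 SE, limma adjusted p = 0.622). PFKFB4, which sets the level of a glycolysis activator, was at 7.93, 7.88 and 7.78 against 8.36, 8.21 and 8.07 (0.35 ± 0.11, limma adjusted p = 0.670). Neither pair of groups overlaps. Chosen after their values were seen, LOX, which crosslinks collagen, was at 0.36, ADM, the vasodilator adrenomedullin, at 0.31, EGLN3, an oxygen-sensing prolyl hydroxylase, at 0.27, P4HA2, a collagen prolyl hydroxylase, at 0.23, BHLHE40 at 0.21 and ALDOC, an aldolase, at 0.20. VEGFA, the vascular growth factor, was at 0.06 and the glucose transporter SLC2A3 at -0.15, the 1 member below 0. The 8 genes of the oxygen-sensing machinery and the factor's own subunits had a median of 0.04 and 0 with separate groups, and VHL, which marks the factor for degradation, was at 0.15. With metastin-10 the list had a median of 0.47 and 15 members called higher, where 0.966% of genes were.

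**Figure D5:**
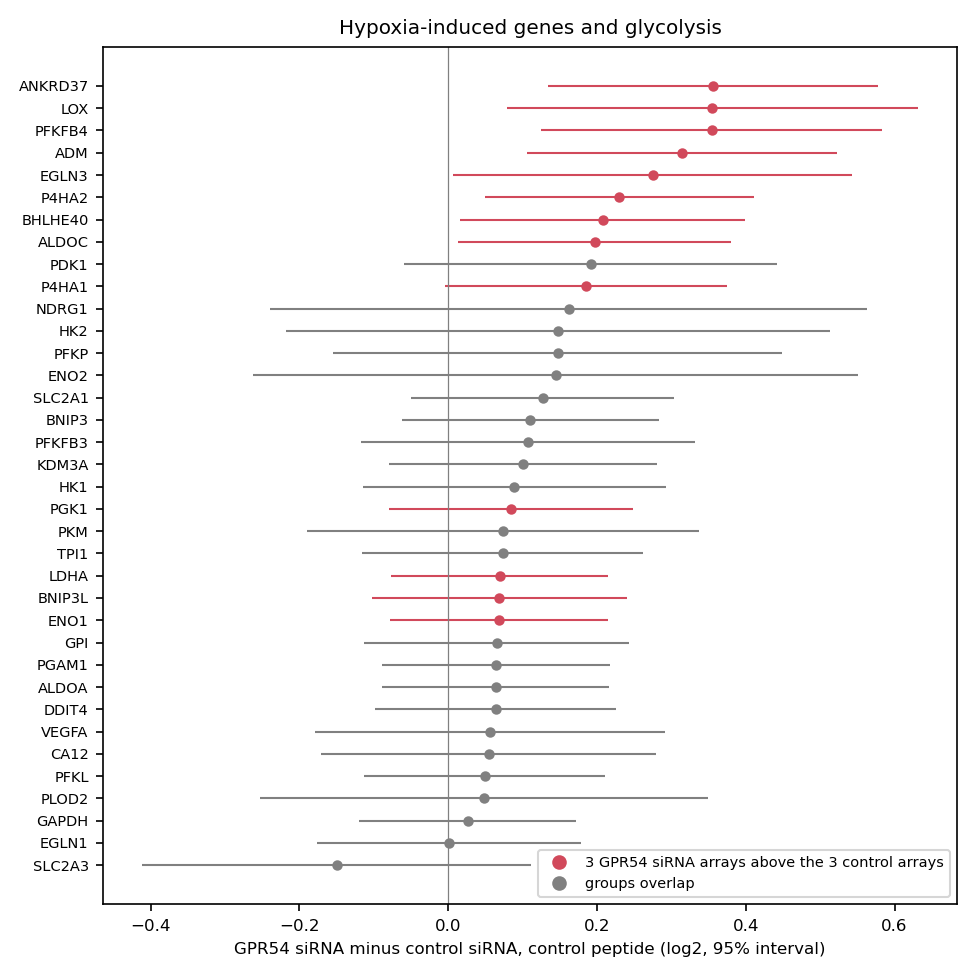
Log2 difference with its 95% interval for the 36 measured hypoxia-induced and glycolysis genes, GPR54 siRNA minus control siRNA with control peptide, in red where the 3 arrays labelled GPR54 siRNA are all above the 3 control arrays. All but SLC2A3 lie above 0, 13 are in red, and the highest is ANKRD37 at 0.36.

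The promoters of both genes named first are shown to place the motif described above. They are the 250 bases before the RefSeq start, written on the gene's strand (GRCh38.p14). ANKRD37 lies on the plus strand at chr4:185396591-185396840 and PFKFB4 on the minus strand at chr3:48556804-48557053. Capitals mark ACGTG or GCGTG on either strand, the cores of the hypoxia response element. ANKRD37 has 3 matches to ACGTG, 2 of which overlap in a palindrome, and 0 to GCGTG, and PFKFB4 has 0 and 1. Of the 32 members with a promoter in the table, 50.0% hold ACGTG and 40.6% GCGTG, and 71.9% hold either. Of all 35116 promoters of this length the shares are 18.5%, 32.2% and 43.2%, with every promoter counted there against 1 per gene in the list. The list is of genes known to respond to low oxygen, so its shares bear on that choice and not on these arrays. A match is a description of letters and not a binding site.
ANKRD37: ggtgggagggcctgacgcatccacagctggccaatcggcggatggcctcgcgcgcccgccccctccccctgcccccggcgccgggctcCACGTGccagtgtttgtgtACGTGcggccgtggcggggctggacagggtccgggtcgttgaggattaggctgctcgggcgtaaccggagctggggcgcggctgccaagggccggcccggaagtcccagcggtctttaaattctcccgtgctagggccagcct
PFKFB4: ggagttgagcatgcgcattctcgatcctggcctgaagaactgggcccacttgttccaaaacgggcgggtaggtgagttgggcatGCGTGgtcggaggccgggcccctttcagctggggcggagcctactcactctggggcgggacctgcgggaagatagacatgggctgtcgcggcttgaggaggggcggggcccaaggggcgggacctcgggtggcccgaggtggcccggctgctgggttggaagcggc

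The long non-coding RNA list held FTX, the lowest single gene of the 33 lists. Of the 19 measured, 4 had all arrays labelled GPR54 siRNA below the controls (21.1%, against 2.90% of all genes) and 1 had them above, with a median of -0.04. FTX and PWAR6 are given above. MALAT1, an abundant nuclear RNA of splicing speckles, and KCNQ1OT1, an imprinted antisense RNA, are named after their values were seen. MALAT1 was at 8.81, 9.04 and 8.85 against 8.25, 8.80 and 8.41 at its brightest probe set (-0.42), and KCNQ1OT1 was at -0.19. Of the 12 MALAT1 probe sets on the array, which read 1 gene and are not independent, 11 were below 0 with a median of -0.37 and none was called. With metastin-10, 0 of the 12 were below 0 and the median was 0.30. The member above was MIR210HG, host of a hypoxia-induced microRNA and also named after its value was seen, at 0.30.

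The receptor's own family and its signalling gave no calls, where 0 of all 19775 genes passed. Of the 9 measured genes of kisspeptin and related RFamide peptides and receptors, 7 were below 0 with a median of -0.04, and 2 (22.2%, against 2.90% of all genes) had separate groups with the arrays labelled GPR54 siRNA below. NPFF, the precursor of neuropeptide FF, was at 6.29, 6.15 and 6.04 against 5.90, 6.01 and 5.73 (-0.28), and NPFFR1, a receptor of this family, at 5.66, 5.61 and 5.72 against 5.30, 5.33 and 5.58 (-0.26). Both pairs of groups are separate, and neither passed. Of the 25 genes of Gq, phospholipase C, protein kinase C and calcium signalling, 14 were above 0 with a median of 0.02. GRK3, a kinase that desensitises receptors, was at 0.18 and RGS4, which shortens G protein signalling, at 0.24. The 26 immediate early and MAPK feedback genes had a median of 0.05, with the phosphatases DUSP5 at 0.35 and DUSP1 at 0.24.

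For lists of responses that transfected RNA can set off, the median difference was also near 0. Both groups were transfected, so a response common to both siRNAs would not show in this comparison. The 15 genes of the RNA interference machinery had a median of -0.04, with the dicing enzyme DICER1 at -0.35 (95% interval -0.98 to 0.29) and AGO4, an Argonaute, at -0.18. The 36 interferon response genes and RNA sensors had a median of 0.01, with OASL at -0.22 and IFIT2 at -0.16. Among 25 genes of NF-kB and inflammation, with a median of 0.01, the cytokine IL1A was at 3.26, 3.37 and 3.405 against 3.79, 3.54 and 3.79 (0.36, limma adjusted p = 0.362), and PTGS2, cyclooxygenase-2, was at -0.27. The 25 unfolded protein and amino acid stress genes had a median of 0.02, with SLC7A11, the cystine transporter, at -0.12 and ATF3 at 0.11. No member of these lists passed, where 0 of all 19775 genes did.

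Lists for the machinery around the called probe sets gave no call either, where 0 of all 19775 genes passed. The 32 SR proteins, hnRNPs and splicing kinases had a median of -0.02 (RBM25 -0.12, RBM5 -0.09), the 32 spliceosome genes 0.03 (SNRNP200 -0.22, SNRPC 0.09), the 11 nonsense-mediated decay genes 0.03 (DHX34 and RBM8A 0.08) and the 23 nuclear exosome genes 0.02 (EXOSC5 0.14, EXOSC4 0.11). The 19 genes of 3 prime end processing had a median of 0.02, and NUDT21, which guides the choice of polyadenylation site, was at -0.18. The 20 golgins and centrosome scaffolds, the class of GOLGA4 and AKAP9, had a median of -0.04, with GOLGA5 at 0.11 and GOLGA1 at 0.10. The 16 genes of mitochondrial RNA and LRPPRC partners had a median of 0.05 (MTERF1 and FASTKD2 0.09), and the 25 respiratory chain genes 0.02 (CYC1 0.11, SDHA 0.08).

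Among growth, hormone and matrix genes no member passed, where 0 of all 19775 genes did. The median was 0.02 for 24 S phase genes (CCNE2, a cyclin of S phase entry, at -0.19 and MCM2 at 0.08). For 25 mitosis genes it was -0.0020 (KIF11, a spindle motor, at -0.19 and AURKB at 0.13). For 17 p53 targets it was 0.05 (TP53I3 at 0.15). For 19 apoptosis regulators it was -0.0047 (XIAP, a caspase inhibitor, at -0.22 and BIK at 0.09). It was 0.02 for 21 oestrogen and progesterone response genes, where STC1 was at 0.18 and SCGB2A1 at 0.20. The 22 matrix protease genes were at 0.05 (TIMP1, a metalloprotease inhibitor, and PLAU, urokinase, at 0.16). The 18 mesenchymal transition genes were at -0.0092 (VIM, vimentin, at 0.26 and TGFBR1 at -0.17). The 11 metallothioneins had a median of 0.06 (MT1M at 0.20) and the 16 cholesterol synthesis genes 0.02 (MVD at 0.18). The 17 ribosomal protein genes had a median of 0.0058 (RPL11 at -0.05 and RPS9 at 0.03). Over the 33 lists, 634 different genes were measured and 0 passed (limma), where 0 of all 19775 genes did. With the replicate block PWAR6 was the 1 that passed, where 2 of all genes did.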

How the data were processed

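RNA from 12 arrays (Affymetrix U133 Plus 2.0; 4 groups of 3, called biological replicates in the labels) was labelled by in vitro transcription. The authors deposited 1 table of log2 intensities from RMA (per the submitters' processing notes), a method that corrects background, quantile-normalizes arrays and combines each set's probes into 1 value. Software versions: not given in the sources used here. A shift of most genes would be hidden by this normalization, and no scanner files or detection calls were used here, so the differences of dim probe sets may be compressed.

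Of 54675 probe sets, 62 controls were left out and 54613 tested without a filter. The platform annotation lists 1 gene for 41091, several for 1801 and none for 11721 (21.5%); symbols were looked up in RefSeq (GRCh38.p14), which changed 0 of 41037 matched. The brightest probe set by mean over 12 arrays stood for each of 19775 genes. limma 3.58.1 in R 4.3.3 fitted 4 group means over all 12 arrays (8 residual degrees of freedom, eBayes), with two-sided tests and Benjamini-Hochberg adjustment over 54613 probe sets at 0.05. The number of arrays limits precision: the median 95% half-width was 0.25. In data simulated for this comparison (54613 probe sets) the fit found 98% of the log2 changes of 1 and 37% of those of 0.5, with 5 false calls among 140. The simulated noise was independent between probe sets and arrays, with no replicate effect, so these rates may not hold for the real arrays.

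After subtracting group means, arrays with the same number correlated at 0.11, 0.21 and 0.54, and arrays with different numbers at -0.41 to 0.26. Those of replicates 1 and 2 (0.11 and 0.21) lie within the range of different numbers, and only that of replicate 3 lies above it. Pairing is therefore not settled by the data, and the labels do not give it. The main values come from the fit without a block, and the replicate block is given where it changes a call.

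Named are KISS1R, KISS1, all called probe sets with the brightest of the same gene, the 12 highest and 12 lowest genes with separate groups and unadjusted p under 0.01, and per gene list up to 2 members of smallest p. The members and the 33 lists (705 entries, 638 measured) were chosen with earlier results of these data known, so lists are described and not tested. Alternatives were the block, replicate 3 as a batch, replicates 1 and 2, only the groups compared, array weights, eBayes with trend, a level filter, median centring and leaving out each array.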

Additional observations from a re-analysis of the deposited data

Results flagged for a closer look

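The siRNA effect differed between the peptides, by the interaction test of the limma fit, for 3 named probe sets. For 244414_at and 225239_at the test reuses the control peptide arrays by which they were chosen, so it is no separate evidence. KISS1R was 0.14 higher with control peptide and 1.03 higher with metastin-10 in the arrays labelled GPR54 siRNA, a difference of 0.89 (limma adjusted p = 0.04996; 95% interval 0.59 to 1.19). The level that stood apart was that of control siRNA with metastin-10, at 8.43, 8.42 and 8.35. This call rests on the arrays used: without GPR54 siRNA, metastin-10 replicate 3 the limma adjusted p was 0.0369, without any other single array it was 0.0535 to 0.198, and with arrays centred on their median 0.0718. The probe set 244414_at was at -1.39 with control peptide and -0.15 with metastin-10, a difference of 1.24 (limma adjusted p = 0.0242, 0.0510 with the replicate block, and 0.0175 to 0.106 leaving out 1 array at a time). The probe set 225239_at was at -0.84 and 0.76, a difference of 1.60 (limma adjusted p = 0.00799, and 0.00464 to 0.0474 leaving out 1 array at a time). It was at 5.81, 5.96 and 5.71 with control siRNA and control peptide, 5.29, 4.94 and 4.74 with GPR54 siRNA, 4.53, 4.46 and 4.36 with control siRNA and metastin-10, and 5.31, 5.24 and 5.10 with both.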

How the results depend on the processing

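The number of probe sets called was 29, and 51 with the replicate block, 87 with a batch term for replicate 3, 0 with replicates 1 and 2 only, 9 with only the groups compared, 130 with array weights, 56 with trend and robust eBayes, and 11 with a mean level of at least 5. With arrays centred on their median it was 28. It ran from 3 to 44 leaving out 1 array at a time. The number of genes called was 0, and 2 with the replicate block, 3 with the batch, 6 with array weights, and 1 with trend or with median centring, and 0 to 2 leaving out 1 array. The KISS1R difference ran from 0.067 to 0.196 without 1 array. The median of the 29 with metastin-10 was -0.079 with a mean level of at least 5, where 14 of them were tested, and -0.17 to -0.11 leaving out 1 array. Named probe sets past the interaction threshold were 3, and 9 with the batch, 0 with replicates 1 and 2 only, 21 with array weights, 8 with trend and 1 to 6 leaving out 1 array. With replicates 1 and 2 only, KISS1 turned to 0.050 and the brightest DLEU2 probe set to -0.026, which was also at -0.013 with array weights. Leaving out 1 array turned the sign of values near 0: KISS1 ran from -0.087 to 0.033, RPS9 from -0.0098 to 0.085, and the brightest probe sets of DLEU2 from -0.037 to 0.041, GOLGA4 from -0.083 to 0.15 and LRPPRC from -0.086 to 0.0059. The replicate block changed the call of 227576_at, 240798_at, SMG1P5, PWAR6 and the DLEU2 probe set 1556820_a_at; causes of these moves were not tested. Apart from leaving out single arrays, named values held direction and side of the threshold 862 times over these settings, with 12 newly past it and 61 no longer past it; leaving out single arrays, 1296 held, 155 were no longer past it, 3 newly past it and 10 changed sign. With 3 arrays a group and a median 95% half-width of 0.25, differences as small as those of the gene lists are below what single genes can resolve.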
